A study of Mus musculus with 10 samples.

Results

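The expression of 7 heat-induced chaperone genes (Hspa1a, Hspa1b, Hsph1, Hspa8, Hsp90aa1, Dnajb1 and Hspb1), their transcription factor gene Hsf1 and 2 cold-induced RNA-binding genes (Cirbp and Rbm3) was followed across 10 mouse livers. These 10 genes were taken by name. Of them 8 had a probe set of their own on the array, out of 19935 genes measured. Hspa1b shared its probe set with Hspa1a, and Hsf1, which was paired with no probe set in the annotation used, was not analysed here. The livers came from mice 12 weeks old, 5 wild-type (WT) and 5 labelled NML-KO, with 1 whole-transcript array each. NML is nucleomethylin, the nucleolar protein encoded by Rrp8. The labels give no strain, sex, feeding state or hour of dissection, and do not say how the allele was made or whether the WT animals were littermates.

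Heat and other stresses that unfold proteins release the transcription factor HSF1, which binds heat shock elements near the start of chaperone genes and raises their transcripts within minutes. The chaperones hold, refold or hand on damaged proteins, HSP70 doing so with HSP40 partners that deliver clients and HSP110 partners that exchange its nucleotide. CIRBP and RBM3 are RNA-binding proteins with the opposite thermal response, being made in larger amounts when cells are mildly cooled. In rodent liver, both groups are also known to follow the daily rhythm of body temperature.

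Facts of the whole data set frame these genes. All intensities below are on the log2 scale, and a difference is a difference of log2 means. The arrays had median intensities from 62.5 to 66.7 before the logarithm, and 5 arrays a genotype bound how precisely any value is known. Rrp8 lay between 7.65 and 7.90 in WT livers and between 6.65 and 7.19 in NML-KO livers, so that the genotypes did not overlap. Dbp, a transcription factor gene driven directly by the circadian clock, separated the livers into 5 with values from 9.68 to 10.23 (WT 1, WT 2 and NML-KO 1 to 3, called Dbp-high) and 5 with values from 6.20 to 6.60 (WT 3 to 5, NML-KO 4 and NML-KO 5, called Dbp-low). No gene passed an adjusted p of 0.05 for NML-KO against WT in limma (0 of 19935, 0%), and 539 had an unadjusted p below 0.05. These were 1.05% of all genes in the higher and 1.66% in the lower direction, fewer than that threshold gives on average if no gene differed. Hepatocyte markers were bright in every liver, with mean log2 intensities of single markers from 13.72 to 14.44. In tissue RNA of this kind, fewer cells of a type and less RNA per cell cannot be told apart.

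Among the heat-induced genes, 4 that encode HSP70 chaperones and their partners lay higher in NML-KO livers, by 1.15-fold to 1.40-fold. They were Hspa1a, Hsph1, Dnajb1 and Hspa8, and none of them passed the threshold adjusted over all genes (limma adjusted p = 0.9995 for each). Each had an unadjusted p below 0.05, so that 4 of 6 measured heat-induced genes did so in the higher direction, against 1.05% of all genes (209 of 19935). The median difference over the 6 was 0.26, against -0.0065 over all genes. The members were chosen with this direction known, so the counts describe the list and do not stand as separate evidence.

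Hspa1a encodes inducible HSP70, the chaperone most strongly induced by heat. Its WT values were 6.31, 5.98, 6.31, 6.43 and 6.07 in WT 1 to WT 5. In NML-KO 1 to NML-KO 5 they were 7.12, 6.73, 6.45, 6.52 and 6.72. Every NML-KO liver thus lay above every WT liver, although the highest WT value and the lowest NML-KO value were only narrowly apart. The groups did not overlap in the higher direction for 0.135% of all genes (27 of 19935). The mean was 6.22 ± 0.19 (SD, n = 5) in WT and 6.71 ± 0.26 (SD, n = 5) in NML-KO livers, a difference of 0.48 (SE 0.13; 95% confidence interval 0.19 to 0.78; limma unadjusted p = 0.0042, rank 26 of 19935). It was 0.62 within the Dbp-high livers and 0.35 within the Dbp-low livers.

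Hsph1 encodes HSP110, which recharges HSP70 by nucleotide exchange. It measured 7.99, 8.02, 8.09, 7.79 and 7.66 in WT 1 to WT 5. Of the NML-KO livers, NML-KO 1, 2, 4 and 5 measured 8.60, 8.65, 8.32 and 8.59, above all WT livers, whereas NML-KO 3 measured 7.83, within the WT range. The difference of 0.49 (SE 0.16; 95% confidence interval 0.14 to 0.84; limma unadjusted p = 0.0107) was 1.40-fold. Within the Dbp-high livers it was 0.36 and within the Dbp-low livers 0.61.

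Dnajb1 encodes the HSP40 co-chaperone that brings clients to HSP70. In WT 1 to WT 5 it measured 7.07, 7.04, 6.81, 7.04 and 6.85. NML-KO 1 to NML-KO 5 measured 7.13, 7.46, 7.04, 7.23 and 7.49, of which only NML-KO 3 lay inside the WT range. The NML-KO mean was 1.24-fold the WT mean, with a difference of 0.31 (SE 0.10; limma unadjusted p = 0.0108), made up of 0.16 in the Dbp-high and 0.46 in the Dbp-low livers. Hspa8 encodes the constitutive HSC70, which is abundant without stress. Its levels were 12.85, 12.84, 12.73, 12.71 and 12.51 in WT 1 to WT 5 and 13.00, 12.88, 12.81, 12.87 and 13.10 in NML-KO 1 to NML-KO 5. NML-KO 3 again lay inside the WT range, and the difference was the smallest of these 4 genes, 0.20 (SE 0.080; limma unadjusted p = 0.0279). For Hspa8 it was 0.052 in the Dbp-high and 0.33 in the Dbp-low livers. The 2 other probe sets of Hspa8 gave differences of 0.17 and 0.18. The first of these had 0.13 in the Dbp-high and 0.25 in the Dbp-low livers, the other 0.016 and 0.35. Signal from near-identical copies of Hspa8, Hsp90aa1, Hspb1 or Rbm3 elsewhere in the genome cannot be told apart from that of the genes themselves. Whether these genotype differences vary between the Dbp-high and Dbp-low livers was not tested.

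**Figure D1:**
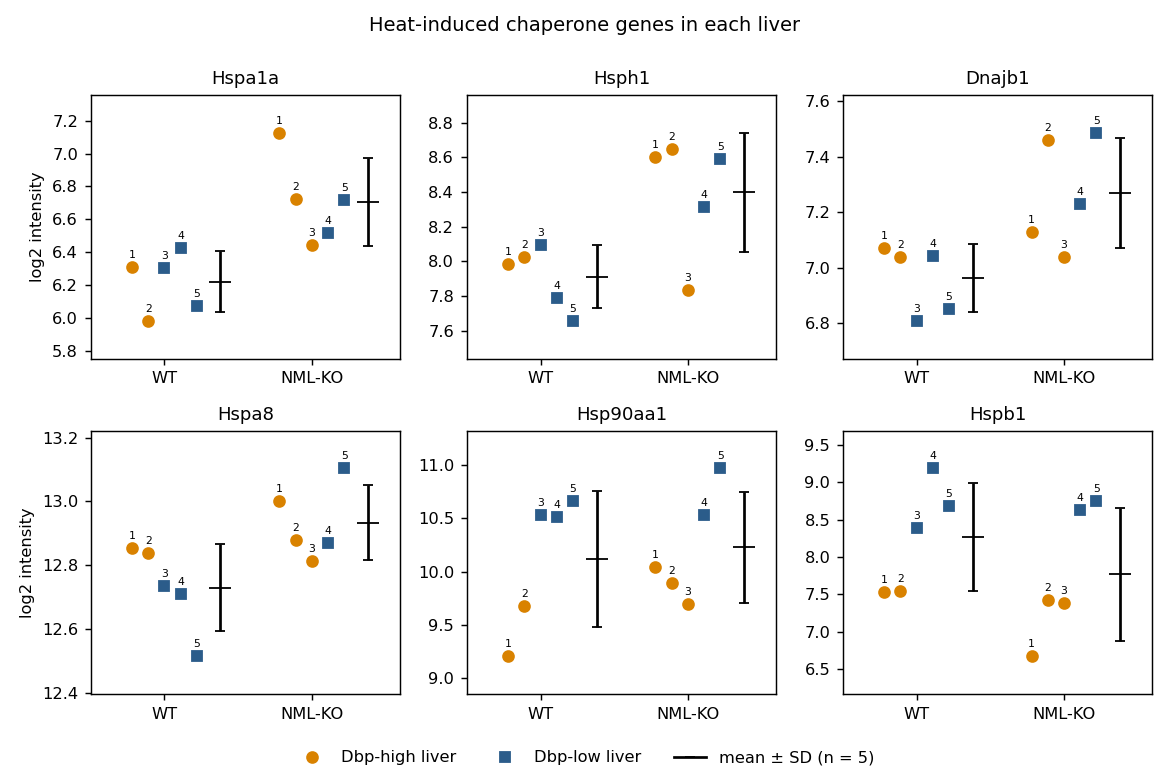
Log2 intensity of the 6 measured heat-induced genes in each liver (numbers are the replicate numbers of the labels; colours and shapes mark Dbp-high and Dbp-low livers; bars show mean ± SD, n = 5 per genotype). In the panels of Hspa1a, Hsph1, Dnajb1 and Hspa8 the NML-KO livers sit mostly above the WT livers with the colours mixed, whereas Hsp90aa1 and Hspb1 separate by colour, with Dbp-low livers higher.

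The windows before the start of these genes were read for heat shock elements, since several of the genes lay higher together. The search was for pairs of inverted HSF1 units facing head to head (GAANNTTC) or tail to tail (TTCNNGAA). Both forms read the same on the opposite strand, and they can overlap. RefSeq windows (GRCm38.p6) were at hand for 6 of the 10 genes, and the 250 bases before the start were searched. Of all 32851 windows of this length, 12.8% held at least 1 such pair. Hspa1a, Hspa1b and Hsph1 held 1 pair each and Hspb1 held 2, while Dnajb1 and Cirbp held none in their windows. A pair extended by a further inverted unit at the same spacing was also searched for. It was found in none of these windows, against 0.466% of all windows. A match describes letters and does not show binding. The windows of Hspa1a, Hsph1 and Hspb1 are shown for the placing of the pairs, and that of Cirbp as the cold-induced counterpart. Capitals mark the pairs, and each sequence runs 5′ to 3′ on the gene's strand up to the base before the start. Hspa1a lies at chr17:34972157-34972406 on the minus strand, Hsph1 at chr5:149636337-149636586 on the minus strand, Hspb1 at chr5:135887669-135887918 on the plus strand and Cirbp at chr10:80167589-80167838 on the plus strand.
Hspa1a: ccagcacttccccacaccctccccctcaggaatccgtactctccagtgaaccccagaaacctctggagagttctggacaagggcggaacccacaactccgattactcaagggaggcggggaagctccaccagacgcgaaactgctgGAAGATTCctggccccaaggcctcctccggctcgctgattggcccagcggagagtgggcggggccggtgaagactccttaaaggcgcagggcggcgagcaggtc
Hsph1: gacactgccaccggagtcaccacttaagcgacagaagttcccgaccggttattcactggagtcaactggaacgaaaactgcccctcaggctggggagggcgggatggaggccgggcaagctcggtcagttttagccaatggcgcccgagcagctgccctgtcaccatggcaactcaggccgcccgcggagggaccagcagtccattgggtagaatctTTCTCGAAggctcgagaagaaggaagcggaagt
Hspb1: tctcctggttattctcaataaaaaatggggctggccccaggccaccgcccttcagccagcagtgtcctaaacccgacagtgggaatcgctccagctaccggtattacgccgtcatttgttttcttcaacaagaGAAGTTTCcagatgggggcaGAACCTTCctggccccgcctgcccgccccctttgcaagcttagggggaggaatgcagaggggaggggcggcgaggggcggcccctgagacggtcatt
Cirbp: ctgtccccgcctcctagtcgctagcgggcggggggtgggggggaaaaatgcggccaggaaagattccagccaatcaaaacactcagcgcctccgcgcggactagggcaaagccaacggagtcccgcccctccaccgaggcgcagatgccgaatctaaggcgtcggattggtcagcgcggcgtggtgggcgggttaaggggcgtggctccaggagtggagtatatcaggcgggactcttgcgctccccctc

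The pair in the Hspa1a window (GAAGATTC) lay 104 to 97 bases before the start. That of Hsph1 (TTCTCGAA) was closer, 33 to 26 bases before the more upstream of its 2 annotated starts. In Hspb1 the pairs GAAGTTTC and GAACCTTC lay 117 to 110 and 97 to 90 bases before the start. The windows of Hspa1a and Hspb1 both held head-to-head pairs, and the values of these genes across the livers took different courses. Whether the pairs bear on these values was not tested. The window of Hspa1b differed from that of Hspa1a at 3 of 250 bases. The coding sequences of the pair are likewise known to be nearly identical, so even the probe set assigned to Hspa1a alone can take signal from Hspa1b.

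The probe set assigned to Hspa1a and Hspa1b together separated the genotypes as that of Hspa1a did. Its WT livers measured 7.85, 7.81, 7.96, 7.99 and 7.75 in WT 1 to WT 5. NML-KO 1 to NML-KO 5 measured 8.92, 8.54, 8.04, 8.07 and 8.62. All NML-KO livers lay above all WT livers, NML-KO 3 and NML-KO 4 by little and the other 3 by more than the whole WT range. The mean difference was 0.56, or 1.48-fold, with 0.67 in the Dbp-high and 0.44 in the Dbp-low livers. Probe sets shared by several genes stayed outside the gene-level fit, so this difference has no p.

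Snord14c and Snord14d, small nucleolar RNAs that guide methylation of ribosomal RNA, lie in introns of Hspa8, and 2 probe sets are assigned to both of them together with Hspa8. The brighter one measured 10.08, 10.58, 8.89, 9.62 and 8.67 in WT 1 to WT 5. In NML-KO 1 to NML-KO 5 it measured 10.79, 10.76, 11.06, 10.64 and 10.25. The genotypes overlapped, since WT 2 lay above NML-KO 5, and the lowest values were those of the Dbp-low WT livers. The mean was 9.57 ± 0.80 (SD, n = 5) in WT and 10.70 ± 0.29 (SD, n = 5) in NML-KO livers, a difference of 1.13 or 2.19-fold, with 0.54 in the Dbp-high and 1.38 in the Dbp-low livers. The dimmer one followed it closely, with a difference of 1.13, and the pair counts as 1 measurement. The difference was wider than the 0.17 to 0.20 of the Hspa8 probe sets, and NML-KO 3, lowest of its genotype for Hspa8, was highest here. No test was made on these shared probe sets.

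**Figure D2:**
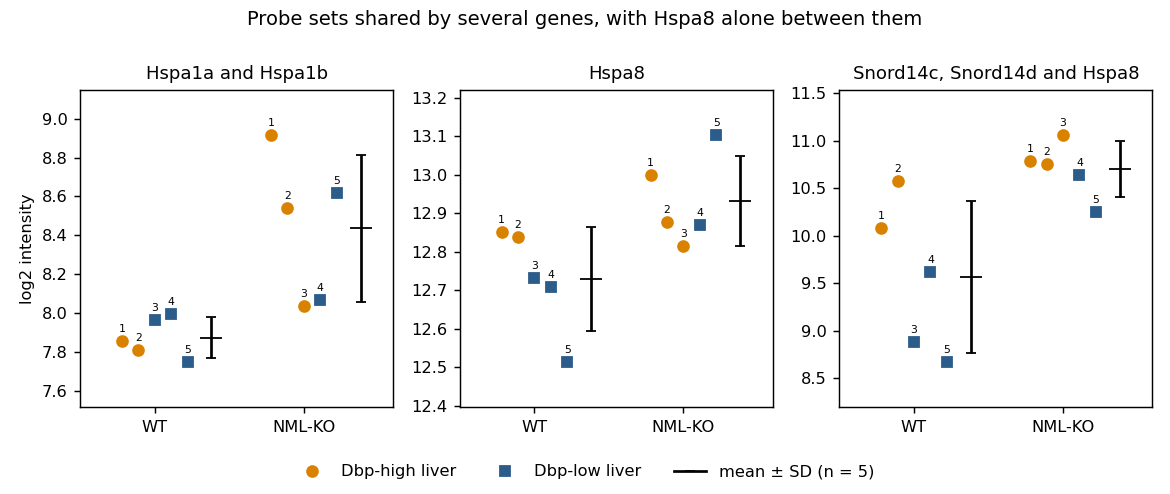
Log2 intensity in each liver of the probe set shared by Hspa1a and Hspa1b, of the probe set of Hspa8 alone and of 1 of the probe sets assigned to Snord14c, Snord14d and Hspa8 (bars show mean ± SD, n = 5 per genotype; each panel has its own axis). The WT livers of the right panel spread from 8.67 to 10.58, with the Dbp-low ones lowest, and the NML-KO livers sit between 10.25 and 11.06.

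Hsp90aa1 and Hspb1 lay far apart between the Dbp-high and Dbp-low livers. Of the 6 heat-induced genes, these 2 were lower in all Dbp-high livers than in any Dbp-low liver, a pattern shared by 7.12% of all genes (1420 of 19935). Hsp90aa1 encodes the inducible cytosolic HSP90, which matures kinases and steroid receptors. It measured 9.21, 9.68, 10.05, 9.89 and 9.70 in the Dbp-high livers WT 1, WT 2 and NML-KO 1 to 3. The Dbp-low livers WT 3 to 5, NML-KO 4 and NML-KO 5 measured 10.52, 10.51, 10.66, 10.53 and 10.97. The sets were separated by a gap, and with genotype in the model the Dbp-low livers were 2.00-fold higher (Dbp-high minus Dbp-low -0.996, SE 0.12), with -1.12 within WT and -0.87 within NML-KO livers. The 3 probe sets assigned to Hsp90aa1 agreed on this, with -1.01 to -0.97.

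Hspb1 encodes the small heat shock protein HSP25, which keeps unfolding proteins soluble. Its Dbp-high values were 7.53, 7.54, 6.67, 7.43 and 7.38 in the order given for Hsp90aa1, and its Dbp-low values 8.38, 9.18, 8.68, 8.63 and 8.74. Here too the sets were separated by a gap, and the Dbp-low livers were 2.58-fold higher (Dbp-high minus Dbp-low -1.37, SE 0.18). The difference was -1.22 within WT and -1.52 within NML-KO livers. Hspa1a, Hsph1, Dnajb1 and Hspa8 differed between the sets by 0.0036 to 0.052 (SE 0.082 to 0.16) with genotype in the model, and their values overlapped. These small values average opposite signs within the genotypes. The Dbp-high minus Dbp-low difference was 0.16 within WT and -0.092 within NML-KO livers for Hsph1, 0.15 and -0.15 for Dnajb1, 0.19 and -0.089 for Hspa8, and -0.12 and 0.15 for Hspa1a. For Hspa8 the signs depended on the probe set. Its 2 other probe sets gave -0.022 and -0.14, the same sign, and 0.15 and -0.19. Over all genes the median size of the difference between the sets was 0.10. Summed intensities of cholangiocyte markers (4 of 5 measured) ran from 258.0 to 306.4 in the Dbp-high and from 391.2 to 498.2 in the Dbp-low livers, and those of hepatocyte markers (6 of 6 measured) from 104000 to 109900 and from 97170 to 102700. Taken singly, 1 of the 4 cholangiocyte markers and 4 of the 6 hepatocyte markers separated the sets without overlap. So did 1 of 7 Kupffer cell and macrophage markers, and these counts take both directions together. Of all genes, 7.12% were lower and 5.04% were higher in the Dbp-high livers without overlap. The part of these cell types in the differences of Hsp90aa1 and Hspb1 was not tested.

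By genotype, neither Hsp90aa1 nor Hspb1 stood apart over all livers. For Hsp90aa1 the difference was 0.11 (SE 0.33; 95% confidence interval -0.62 to 0.83; limma unadjusted p = 0.746), and it turned negative without WT 1 (-0.12), WT 2 (-0.00061) or NML-KO 5 (-0.076). With the set of livers in the model it was 0.31 (SE 0.12; limma unadjusted p = 0.0321; adjusted p = 0.992). The Dbp-high NML-KO livers measured 9.70 to 10.05, all above the Dbp-high WT livers at 9.21 and 9.68, and the gap there was 0.43 on average, against 0.18 in the Dbp-low livers. Hspb1 was the only heat-induced gene measured with a lower NML-KO mean, by -0.49 (SE 0.45; 95% confidence interval -1.50 to 0.51; limma unadjusted p = 0.301), and by -0.22 (SE 0.18) with the set in the model. Without NML-KO 1, which had the lowest Hspb1 value of all livers, the difference was -0.22, and without WT 4, which had the highest, -0.26. With the set in the model, 5 of the 6 heat-induced genes had an unadjusted p below 0.05, all higher in NML-KO livers, against 1.55% of all genes (309 of 19935). None of these passed after adjustment (limma adjusted p = 0.992 for each).

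Both cold-induced genes had lower means in NML-KO than in WT livers, by differences that were within the spread between livers. Cirbp encodes the cold-inducible RNA-binding protein, which binds transcripts of clock genes among others. In WT 1 to WT 5 it measured 8.13, 8.22, 7.79, 7.87 and 7.95. NML-KO 1 to NML-KO 5 measured 7.88, 8.25, 7.67, 7.70 and 7.28. The genotypes overlapped widely, and the lowest value was that of NML-KO 5. The difference was -0.24 (SE 0.16; 95% confidence interval -0.59 to 0.12; limma unadjusted p = 0.168), and -0.12 without NML-KO 5. With the set of livers in the model it was -0.31 (SE 0.12; limma unadjusted p = 0.0242; adjusted p = 0.992), with -0.24 in the Dbp-high and -0.38 in the Dbp-low livers.

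Rbm3 encodes a relative of CIRBP that supports translation in the cold. It measured 9.15, 9.61, 8.74, 9.20 and 8.84 in WT 1 to WT 5. The NML-KO livers measured 9.12, 9.22, 9.28, 9.15 and 8.53 in NML-KO 1 to NML-KO 5. Apart from NML-KO 5, which lay below all other livers, the NML-KO values stayed within the WT range. The genotype difference was -0.047 (SE 0.18; 95% confidence interval -0.46 to 0.36; limma unadjusted p = 0.803), and it turned positive without NML-KO 5 (0.086) or WT 2 (0.078). WT 2 had the highest Rbm3 value of all livers and also the highest summed intensity of fat tissue markers (4 of 4 measured), 548.1 against 164.2 to 205.3 in the other livers. The part of fat tissue in its Rbm3 and Cirbp values was not tested. Without WT 2 the Cirbp difference by genotype was -0.18, and between the sets of livers the differences were 0.37 for Cirbp and 0.32 for Rbm3. Neither cold-induced gene had an unadjusted p below 0.05 over all livers, against 1.66% of all genes in the lower direction (330 of 19935). With the set in the model 1 of 2 did, Cirbp, against 2.81% of all genes (561 of 19935).

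Between the sets of livers, both cold-induced genes were higher in the Dbp-high livers, the direction opposite to Hsp90aa1 and Hspb1. The difference was 0.37 (SE 0.12) for Cirbp, or 1.30-fold, with 0.30 within WT and 0.45 within NML-KO livers. For Rbm3 it was 0.41 (SE 0.14), or 1.33-fold, with 0.45 within WT and 0.37 within NML-KO livers, and the 2 other Rbm3 probe sets gave 0.35 and 0.31. The sets overlapped for both genes, so that 0 of 2 separated fully, against 5.04% of all genes in this direction (1005 of 19935). For Cirbp the overlap came from NML-KO 1 and NML-KO 3 at 7.88 and 7.67, which lay below the highest Dbp-low values. For Rbm3 it came from WT 4 and NML-KO 4, which reached 9.20 and 9.15 among the Dbp-low livers. Cholangiocyte and hepatocyte marker sums moved with the sets as given above, and their part in these values was not tested either.

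**Figure D3:**
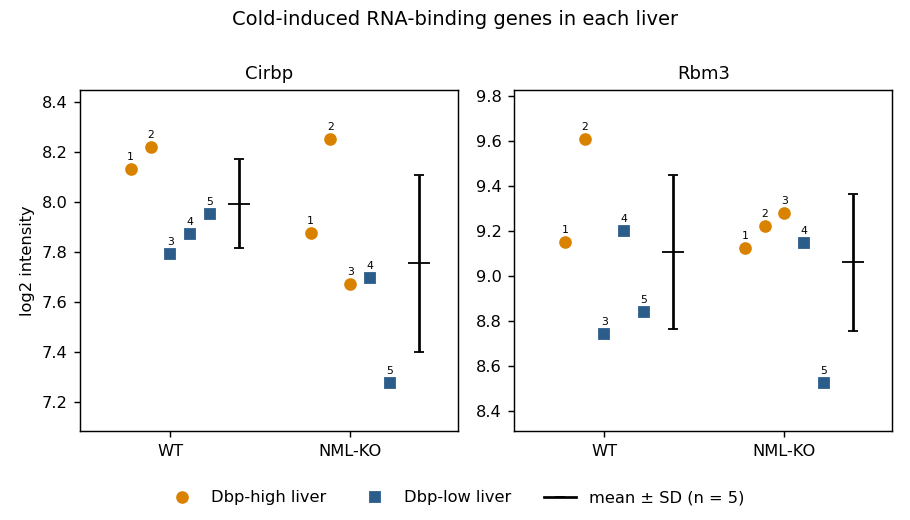
Log2 intensity of Cirbp and Rbm3 in each liver (replicate numbers as labelled; colours and shapes mark Dbp-high and Dbp-low livers; bars show mean ± SD, n = 5 per genotype). Within each genotype the Dbp-high livers tend to sit higher, and NML-KO 5 is the lowest liver in both panels, at 7.28 for Cirbp and 8.53 for Rbm3.

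The difference by genotype and that between the sets were then set against each other for the 8 measured genes. Hspa1a, Hsph1, Dnajb1 and Hspa8 lay at positive genotype differences of 0.19 to 0.48 (set of livers in the model) and near 0 between the sets, as averages over both genotypes. Hsp90aa1 joined them by genotype at 0.31 in this model, against 0.11 (SE 0.33) without the set. Between the sets Hsp90aa1 lay at -0.996, and Hspb1 lay at -0.22 by genotype and -1.37 between the sets. Cirbp and Rbm3 lay at negative genotype differences and at positive differences between the sets.

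**Figure D4:**
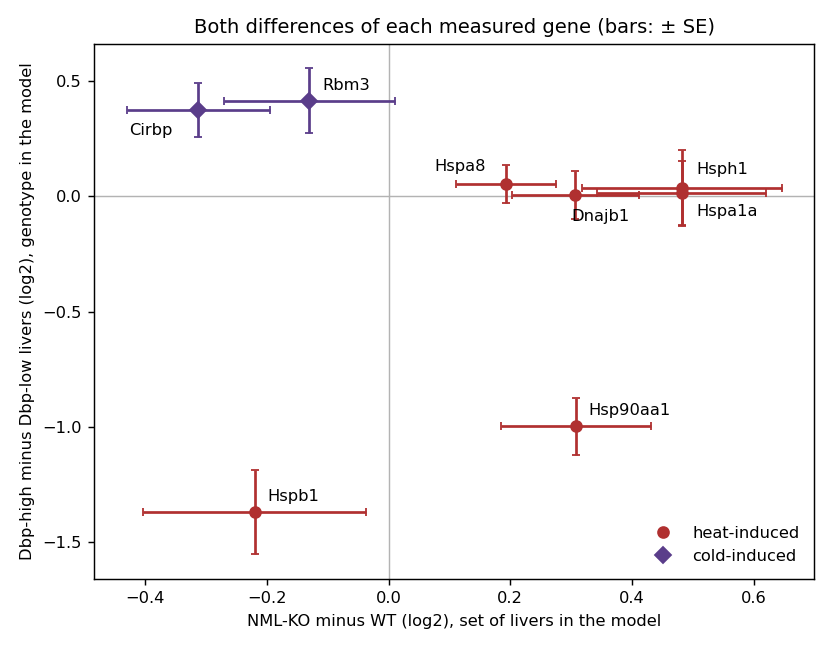
Difference by genotype (horizontal axis, NML-KO minus WT with the set of livers in the model) against the difference between the sets (vertical axis, Dbp-high minus Dbp-low with genotype in the model), both in log2 units with bars of ± 1 SE, for 6 heat-induced (circles) and 2 cold-induced genes (diamonds). Hspa1a, Hsph1, Dnajb1 and Hspa8 line up near 0 on the vertical axis, Hsp90aa1 and Hspb1 sit at -0.996 and -1.37, and the cold-induced genes sit at 0.37 and 0.41.

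Single livers deviated in several of these genes together. NML-KO 5 had the highest value of all 10 livers for Hspa8, Hsp90aa1 and Dnajb1 and the lowest for Cirbp and Rbm3. Its mean over the 6 heat-induced genes was 9.27, against 8.49 to 9.01 in the other livers, and its mean over the 2 cold-induced genes was 7.90, against 8.27 to 8.91. NML-KO 5 is a Dbp-low liver, and both means differ between the sets. The other Dbp-low livers had means of 8.74 to 9.01 for the heat-induced and 8.27 to 8.53 for the cold-induced genes. Without NML-KO 5 the median genotype difference of the heat-induced genes was 0.21 in place of 0.26, and the mean of the cold-induced genes was -0.016 in place of -0.14, which without WT 2 was -0.052. Conversely, NML-KO 3 had the lowest NML-KO value for Hspa1a, Hsph1, Dnajb1, Hspa8 and Hsp90aa1, and without it the heat-induced median was 0.30.

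After centring each gene within the Dbp-high and within the Dbp-low livers, Hspa1a, Hsph1, Hspa8, Dnajb1 and Hsp90aa1 varied together over the 10 livers. The pairwise Pearson correlation was 0.82 for Hsph1 with Hspa8, 0.78 for Hsph1 with Dnajb1 and 0.77 for Hspa1a with Hsph1, and lowest among these 5 for Hspa8 with Hsp90aa1, at 0.47. Hspb1 stood outside, at -0.53 with Hspa1a and 0.12 with Dnajb1. Cirbp correlated negatively with the first 5 genes, from -0.68 with Hspa8 to -0.33 with Hsph1, and Rbm3 from -0.45 with Hspa1a to -0.24 with Dnajb1, while Cirbp and Rbm3 correlated at 0.48. These are descriptions over 10 livers that still hold the genotype difference, share array and scaling, and carry no p.

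Of 22 further heat-inducible chaperones and co-chaperones, 19 were measured, of which 15 had a higher and 4 a lower NML-KO mean, with a median of 0.10. In this list 3 had an unadjusted p below 0.05, all higher, against 1.05% of all genes, and 0 passed after adjustment. They were Ahsa2, a gene of the HSP90 activator family (0.33, SE 0.10; limma unadjusted p = 0.0074), Dnaja1, an HSP40 gene (0.44, SE 0.14; limma unadjusted p = 0.0116), and Dnajb4, another HSP40 gene named after its value was seen (0.44, SE 0.16; limma unadjusted p = 0.0201). With the set of livers in the model the count was 6, against 1.55% of all genes. Ahsa2 then differed by 0.39 (limma unadjusted p = 3.9e-05; adjusted p = 0.195) and Chordc1, an HSP90 co-chaperone gene, by 0.42. This list too was chosen with earlier results of these data known, so its counts do not stand as separate evidence.

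Ahsa2 measured 7.26, 7.45, 7.67, 7.72 and 7.65 in WT 1 to WT 5 and 7.86, 7.70, 7.81, 8.03 and 8.02 in NML-KO 1 to NML-KO 5. Only NML-KO 2 lay among the WT values, below WT 4. Between the sets, the median of these 19 genes was -0.26, against 0.024 over all genes, and 4 of them (Hspe1, Hspa4l, Stip1 and Cryab, the last 3 named after their values were seen) were lower in every Dbp-high than in any Dbp-low liver, against 7.12% of all genes. Hspe1, the mitochondrial HSP10 gene, differed by -0.55 and Chordc1, with overlap, by -0.77.

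Without the set of livers in the model, the other lists gave no gene with an unadjusted p below 0.05 by genotype, and with it 1 (Tra2a, in the list of splicing factors). Over 17 HSP70 family members and partners not known for strong heat induction the median was 0.031, with 11 higher and 6 lower. This list also holds Trap1 and Hsp90b1, which are genes of the HSP90 family. Hspa5, the HSP70 of the endoplasmic reticulum, differed by 0.23 (SE 0.17), and Stub1, a ubiquitin ligase gene that acts on chaperone clients, by -0.20 (SE 0.10). The 8 subunits of the TRiC chaperonin, which folds actin and tubulin, had a median of 0.039, with Cct8 at 0.18 (SE 0.11) and Cct2 at 0.054 (SE 0.063). Of 5 listed heat shock factors and regulators 4 were measured, among them Hsf2 at 0.10 (SE 0.21), Hsbp1, which encodes a binding partner of HSF1, at -0.13 (SE 0.18) and Hsf5 at 0.036 (SE 0.053). Over 13 measured SR splicing factors and CLK kinases, a group whose activity is sensitive to temperature, the median was -0.029, with Srsf6 at -0.16 (SE 0.13) and Tra2a, a splicing activator gene, at 0.15 (SE 0.12). With the set in the model Tra2a differed by 0.21 (SE 0.086; limma unadjusted p = 0.0329; higher in NML-KO livers, as were 1.55% of all genes).

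Between the sets of livers these lists held wide differences in both directions. Hspbp1, which encodes a nucleotide exchange factor of HSP70, was lower in the Dbp-high livers by -0.86, Srsf2 by -0.99, Hsbp1 by -0.56 and Srsf6 by -0.31, all without overlap, as were 7.12% of all genes in this direction. Hsf2 differed by -0.50 and Hspa13 by -0.33, with overlap. Higher in the Dbp-high livers without overlap, as were 5.04% of all genes, were Srsf4 by 0.43, Cct5 by 0.29 and 3 genes of the HSP70 list named after their values were seen. These were Trap1 (0.27) and Hspa9 (0.24), which encode mitochondrial chaperones of the HSP90 and the HSP70 family in turn, and Hspa14 (0.27). The HSP70 list thus held 3 higher genes and 1 lower gene without overlap, with a median of 0.050. Cct7 was higher by 0.21 with overlap.

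**Figure D5:**
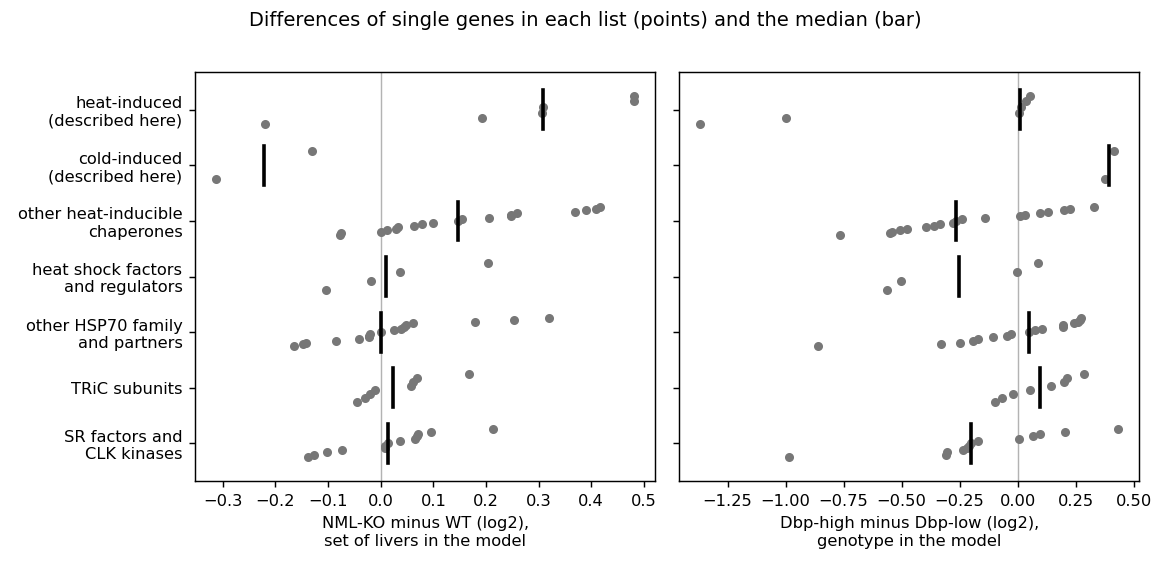
Differences of single genes (points) and list medians (bars) by genotype with the set of livers in the model (left) and between Dbp-high and Dbp-low livers with genotype in the model (right), in log2 units, for the heat- and cold-induced genes and 5 related lists. By genotype the points of the heat-inducible lists sit mostly right of 0, with medians of 0.31 and 0.15 (0.26 and 0.10 without the set in the model). Between the sets the further heat-inducible chaperones centre on -0.26.

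Among 9633 other named genes above the median in level, those most like the mean of the heat-induced genes over the 10 livers, again centred within each set, were Tsc22d3 (Pearson r = 0.94), Tagln (0.88), P4ha1 (0.87) and Slc5a3 (0.86). Tsc22d3, a gene induced by glucocorticoids, measured 8.90, 9.23, 8.44, 8.89 and 8.07 in WT 1 to WT 5. In NML-KO 1 to NML-KO 5 it measured 9.28, 9.75, 8.86, 8.97 and 9.75, highest in NML-KO 2 and NML-KO 5. Those most like the mean of Cirbp and Rbm3 were Nup133 (0.92), Cln3 (0.87), Adcy4 (0.86) and Ctso (0.86). Such values are the highest of 9633 correlations over 10 livers each and carry no p.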

How the data were processed

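Total RNA of 10 mouse livers was labelled for Affymetrix whole-transcript arrays, per the labels' protocols. The authors' deposited values are linear intensity values per probe set, from 18.4 to 29834. The submitters' processing notes name the mouse build mm8. How background was corrected and how arrays were normalized and summarised is not given in the sources consulted. Background left in the values would shrink differences of weakly expressed genes.

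Symbols came from the platform's annotation and were updated by gene ID through a GRCm38.p6 table. Of 28815 probe sets, the 21780 with 1 gene symbol were kept, and of several per gene the one with the highest mean, which left 19935 genes. Analyses used log2 of the deposited intensity, with no filter. The genotypes were contrasted with limma 3.58.1 (R 4.3.3; two-sided), p-values being adjusted by Benjamini-Hochberg over the 19935 genes and called at 0.05. The fit was tested on simulated data that held no difference between the Dbp-high and Dbp-low livers. That test therefore does not show how the fit by genotype alone behaves with such a difference present. P-values set each difference against the spread between these livers, moderated over all genes. In the fit by genotype alone that spread also holds the difference between the sets.

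Livers were called Dbp-high where log2 Dbp exceeded 8. These sets come from a measured value and are not groups of the study, so their differences are descriptions, fitted with genotype as a term. A genotype fit with the set as a term is an alternative, whose added term rests on measured values too.

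The members and lists were chosen with earlier results of these data known. Named genes are the members, Rrp8, Dbp, from each related list the 2 with the smallest p for genotype and the 2 with the widest difference between the sets, and the 4 most like each group of members. Alternatives were quantile normalization, median centring, a filter on low intensities, averaging a gene's probe sets, an offset of 16, the set of livers as a term or each set alone, each genotype alone or no genotype term for the sets, a trended and robust prior, the replicate number as a block, and each array left out.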

Additional observations from a re-analysis of the deposited data

Results flagged for a closer look

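Values of the named genes were searched, within each genotype, for a liver set far apart from the other 4, and 3 of 74 groups held one, where chance alone gives about 1 in 20. Rbm3 was 8.53 in NML-KO 5, against 9.12 to 9.28 in the other NML-KO livers. Cct7 was 9.35 in WT 2, against 9.04 to 9.11 in the other WT livers. Adcy4 was 6.90 in NML-KO 5, against 7.02 to 7.05 in the other NML-KO livers. Adcy4 was named because it followed the mean of Cirbp and Rbm3, which is itself lowest in NML-KO 5, so its low value there comes with that choice and the rate of 1 in 20 does not apply to it.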

How the results depend on the processing

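The median genotype difference of the heat-induced genes was 0.26 and ranged from 0.21 to 0.34 over 19 alternatives. Those of Hspa1a, Hsph1, Dnajb1 and Hspa8 were positive in all 20 alternatives run for each, and the smallest adjusted p of any of the 8 measured genes was 0.871 (limma). Not all of these alternatives could move a difference. The replicate block, the prior and the filter on low intensities leave it unchanged by design. Averaging does so for genes with 1 probe set, such as Hspa1a, Hsph1 and Dnajb1. The filter and the averaging are also among the alternatives for the sets of livers. Signs turned only with 1 array left out, when Hsp90aa1 ranged from -0.12 to 0.25 and Rbm3 from -0.14 to 0.086; the cause was not tested. The number of genes past the adjusted threshold was 0 in 19 of 20 alternatives and 1 without NML-KO 4, where Rrp8 passed (limma adjusted p = 0.0171), so that it ranged from 0 to 1 with 1 array left out. Genes at an unadjusted p below 0.05 numbered 539, against 358 without NML-KO 1 and 994 without NML-KO 4. Between the sets of livers, Hsp90aa1, Hspb1, Cirbp and Rbm3 kept their direction in all 18 alternatives, with Hsp90aa1 from -1.12 to -0.87 and Hspb1 from -1.52 to -1.22. The differences of Hspa1a, Hsph1, Dnajb1 and Hspa8 between the sets were near 0, and each took both signs over these alternatives.

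Each replicate number holds 1 WT and 1 NML-KO liver, so the replicate block leaves every difference by genotype as it was. The median of the heat-induced genes thus stayed at 0.2558 and the mean of the cold-induced genes at -0.1426. Only the SE and p could change, and with the block 0 genes passed (834 at an unadjusted p below 0.05). Deviations of same-numbered livers correlated at 0.44, 0.26, -0.42, 0.35 and 0.54 for numbers 1 to 5. Number 3, with the only negative value, joins a Dbp-low WT liver to a Dbp-high NML-KO liver. Every other number joins livers of the same set. Since the signs go with the sets, these correlations cannot decide whether the numbers mark pairs. The numbers were not taken as pairs.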
